A study of Mus musculus with 9 samples.

Results

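The genes described here are 10 secreted signals that draw or feed immune cells: the chemokines Cxcl10, Cxcl14, Cxcl1, Cxcl12, Cxcl16, Ccl2, Ccl7 and Cx3cl1, and the macrophage growth factors Csf1 and Il34. They were listed by name as chemokines and Csf1r ligands found in nerve. No threshold on values was used, but earlier results of these data were known when the list was made, so the counts of members below are a description of the list. All 10 were among the 36121 genes of the table, and all 10 passed the filter on low values, as did 15014 genes in all. RNA was sequenced from whole sciatic nerves of mice aged 21 days, with 3 mice per genotype and 2 females and 1 male in each. The question was how loss of TDP-43, an RNA-binding protein encoded by Tardbp, alters the nerve.

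The cKO mice (Cnp-Cre; Tardbp-fl/fl) carried Cre and floxed Tardbp on both chromosomes, the cHet mice (Cnp-Cre; Tardbp-fl/+) carried Cre and 1 floxed allele, and the control mice (Tardbp-fl/fl) carried floxed alleles without Cre. Cnp-Cre is expressed from the locus of a myelin enzyme and is active in Schwann cells and oligodendrocytes, so the deletion is aimed at myelinating cells and not at the fibroblasts, vessel cells and macrophages of the nerve. Control differs from the other groups in Cre as well as in Tardbp, while cKO and cHet both carry Cre. Values are normalized TPM, a signal per transcript length that the authors scaled between libraries, so levels can be compared between genes.

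Tardbp was 103, 94.2 and 103 normalized TPM in the cKO nerves, 177, 179 and 186 in the cHet nerves and 185, 194 and 217 in the control nerves. For 3 libraries the genotype field of the labels differs from the title: cKO replicates 1 and 2 carry the cHet genotype there, and cHet replicate 1 carries the control genotype. The titles were used, and the main results are also given without these libraries. All 12 Schwann cell markers had a mean of at least 1, and their summed level was 77876 to 108798 in cKO, 96100 to 135360 in cHet and 103414 to 132949 in control nerves. In cKO against control limma called 1 of these 12, Cnp, the gene whose locus carries the Cre, which was 617 ± 160.4 in cKO, 764 ± 109.6 in cHet and 1379 ± 283 in control nerves (SD, n = 3 each). The Cnp log2 difference was -1.17 (adjusted p = 0.0402), and it passed in 1 of 9 fits with a library left out, that without cKO replicate 2, with adjusted p of 0.0378 to 0.156 over the 9. Of the others, 2 were higher at an unadjusted p under 0.05, Egr2 and S100b, with log2 differences of 0.70 and 0.60 (adjusted p = 0.116 and 0.148). The mean log2 level of other tissues' markers lay more than 2 above the median of the 9 libraries in cKO replicate 3, cHet replicate 1 and control replicate 2 for neurons, in cKO replicate 3 and control replicate 1 for skeletal muscle, and in control replicates 1 and 3 for adipocytes.

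Chemokines are small proteins that bind G protein-coupled receptors on leukocytes and other cells and steer their movement along a gradient. Their families are named by the spacing of the first cysteines: side by side in CC chemokines, with 1 residue between them in CXC chemokines, and with 3 between them in CX3C. Csf1 and Il34 are unrelated to chemokines in fold and both activate Csf1r, the receptor that macrophages need to survive and divide. In injured nerve, Schwann cells and fibroblasts are known sources of Ccl2, which recruits monocytes, while resident macrophages are sustained through Csf1r.

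The cysteine motif that defines each family is shown from the coding sequence, to place the 8 chemokines side by side. Capitals mark the cysteine codons, read 5′ to 3′ on the coding strand from the GENCODE transcripts of GRCm38.
Cxcl10: acggtccgcTGCaacTGCatccatatc
Cxcl14: gggtccaagTGTaagTGTtcccggaag
Cxcl1: gagctgcgcTGTcagTGCctgcagacc
Cxcl12: agctaccgaTGCcccTGCcggttcttc
Cxcl16: gctggaagtTGTtctTGTgatcgtacc
Ccl2: ccactcaccTGCTGCtactcattc
Ccl7: gcatccacaTGCTGCtatgtcaag
Cx3cl1: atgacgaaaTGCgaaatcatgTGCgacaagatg
Of the 5 CXC members, only Cxcl1 has the Glu-Leu-Arg triplet directly before its motif, the feature of chemokines that draw neutrophils. The Cxcl14 stretch runs across the junction of exons 1 and 2, and the other 7 lie in exon 2. The coding sequences of Cxcl16 and Cx3cl1, the membrane-anchored chemokines, hold 246 and 395 codons, against 96 to 148 in the other 6.

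Cxcl10 and Cxcl14 were higher in every cKO nerve than in every cHet and control nerve, about 5-fold and 8-fold against control, and they were the only members past the test. Ccl2 and Cxcl1 were also above all control and all cHet nerves without passing it, and Cxcl12, Cxcl16 and Cx3cl1 differed little. In the test, limma fitted log2(value + 0.5) over the 9 libraries and all 15014 genes with Benjamini-Hochberg adjustment, and an adjusted p under 0.05 counted as passing. In cKO against control 2 of 10 members passed, both higher, where 0.932% of all tested genes were called higher. In bulk RNA, more cells of a type and more RNA per cell cannot be told apart.

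**Figure D1:**
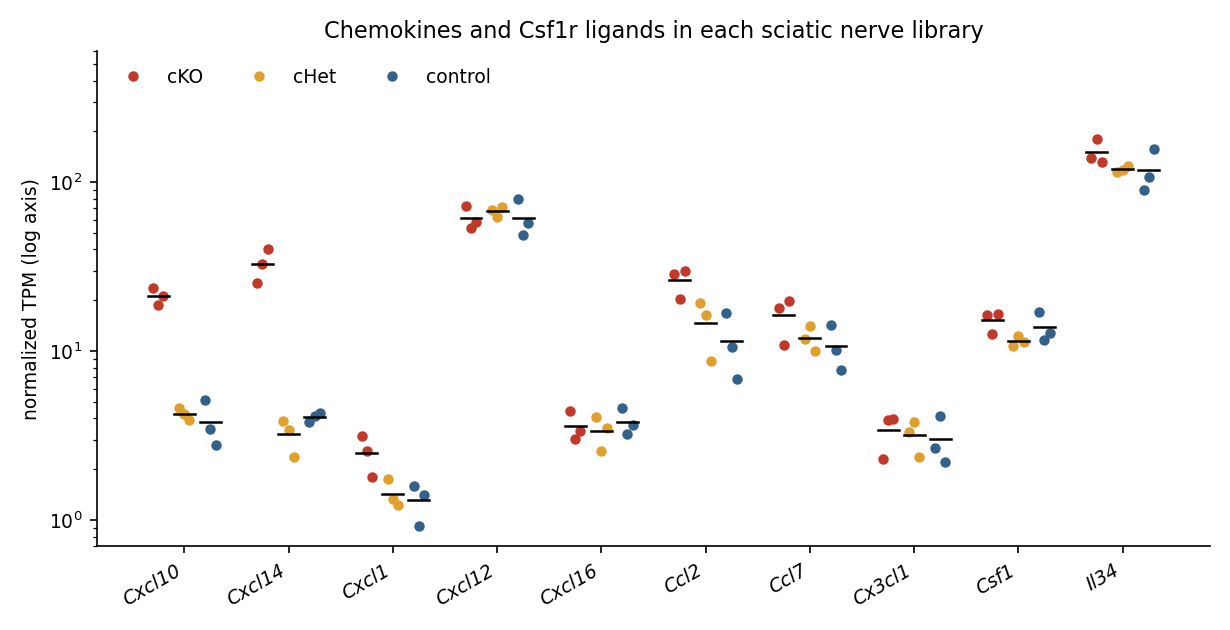
Values of the 10 genes in normalized TPM on a log axis, with 1 point per library and a line at the mean of 3 mice, for cKO, cHet and control from left to right. Cxcl10 and Cxcl14 stand apart in the cKO (18.8 to 23.5 and 25.3 to 40.4), while the groups of Cxcl12, Cxcl16 and Cx3cl1 lie on top of each other.

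Cxcl10 (ENSMUSG00000034855) draws T cells and natural killer cells through Cxcr3 and is a classic gene of the interferon response. It was 23.5, 18.8 and 21.1 normalized TPM in the cKO nerves, 4.62, 4.23 and 3.94 in the cHet nerves and 5.16, 3.49 and 2.80 in the control nerves. The lowest cKO nerve was far above the highest cHet or control nerve, and the cHet and control nerves overlapped. The mean was 21.1 ± 2.37 (SD, n = 3) in cKO and 3.82 ± 1.21 (SD, n = 3) in control, a ratio of 5.54. The log2 difference was 2.36 (SE 0.20, 95% interval 1.90 to 2.81, limma adjusted p = 0.00195) against control and 2.18 (1.73 to 2.64, limma adjusted p = 0.00235) against cHet. On this log2 scale the added 0.5 understates the change of low genes. By p-value Cxcl10 was number 11 of the 15014 genes in cKO against control.

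Cxcl14 (ENSMUSG00000021508) is made by many epithelia and fibroblasts and attracts monocytes and dendritic cell precursors, and its receptor is not settled. It was 25.3, 32.7 and 40.4 normalized TPM in the cKO nerves, 3.86, 3.44 and 2.36 in the cHet nerves and 3.80, 4.13 and 4.31 in the control nerves. Again no cKO nerve came near a cHet or control nerve. The mean was 32.8 ± 7.55 (SD, n = 3) in cKO and 4.08 ± 0.258 (SD, n = 3) in control, a ratio of 8.04, and 10.2 times the cHet mean of 3.22 ± 0.770. The log2 difference was 2.84 (SE 0.21, 95% interval 2.36 to 3.31, limma adjusted p = 0.000741) against control and 3.16 (2.68 to 3.63, limma adjusted p = 0.000462) against cHet. Cxcl14 was number 9 by p-value in the first comparison and number 6 in the second.

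Without the 3 libraries whose labels disagree, 1 cKO nerve remained, and it was assumed to vary like the other groups. Against control the log2 difference was then 2.36 for Cxcl10 and 3.16 for Cxcl14, as large as before, but neither passed with 1 cKO nerve. The cKO library with agreeing labels, replicate 3, held 21.1 for Cxcl10 and 40.4 for Cxcl14. It is also the only cKO library that stood high in neuron and in skeletal muscle markers. Without the libraries high in neuron markers Cxcl10 gave 2.31 against control (limma adjusted p = 0.0671) and 2.23 against cHet (adjusted p = 0.0938), and without those high in adipocyte markers Cxcl14 gave 2.82 against control (adjusted p = 0.0533).

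The bases before the start of both genes are shown because these members passed the test, on the minus strand of GRCm38.p6 as RefSeq gives them. Capitals mark the motifs found, and a match is a description and not a site in use.
Cxcl10, chr5:92348890-92349139: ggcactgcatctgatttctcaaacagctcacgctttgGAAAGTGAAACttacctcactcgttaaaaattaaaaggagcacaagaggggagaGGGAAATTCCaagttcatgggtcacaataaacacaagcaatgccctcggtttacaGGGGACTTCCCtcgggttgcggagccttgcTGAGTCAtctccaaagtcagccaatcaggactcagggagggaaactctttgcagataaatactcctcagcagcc
Cxcl14, chr13:56296552-56296801: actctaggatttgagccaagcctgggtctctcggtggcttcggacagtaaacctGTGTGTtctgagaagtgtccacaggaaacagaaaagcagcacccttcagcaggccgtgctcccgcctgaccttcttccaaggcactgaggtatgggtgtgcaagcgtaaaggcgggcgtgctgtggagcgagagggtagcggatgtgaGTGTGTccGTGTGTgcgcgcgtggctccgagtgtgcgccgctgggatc
Both strands of 250 bases were searched for 6 motifs. Cxcl10 held 1 interferon-stimulated response element (in 0.685% of 32851 promoters of this length), 3 matches to the NF-κB consensus of which 2 overlap (in 7.25%), and 1 AP-1 motif (TGANTCA, in 6.75%). Cxcl14 held none of these, and 3 copies of GTGTGT (in 14.9%). Neither held TATAAA (in 12.4%) or the GC box GGGCGG (in 32.7%). Of the 10 members, 6 matched an entry of the promoter table.

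Cxcl10 sits between the other Cxcr3 ligands, 18559 bp from Cxcl9 and 10655 bp from Cxcl11 on chromosome 5. Cxcl9 was 0.22, 0.25 and 0.12 normalized TPM in cKO, 0.59, 0.06 and 0.15 in cHet and 0.76, 0.16 and 0.65 in control nerves. Cxcl11 was 3.46, 3.40 and 2.68 in cKO, 5.46, 6.48 and 4.83 in cHet and 5.47, 5.29 and 5.58 in control nerves, with no overlap between cKO and either group. The Cxcl11 log2 difference was -0.70 against control (limma adjusted p = 0.0829) and -0.72 against cHet (adjusted p = 0.0678), and it did not pass. Cxcl10 also lies inside the span of Art3 on the opposite strand, and 133 of its exonic bases are shared. Joined over its 4 transcripts, its exons cover 2252 bases, the whole span of the gene. Whether reads were assigned by strand is not given in the sources used here. Art3 was 694 to 921 in cKO, 724 to 925 in cHet and 758 to 962 in control nerves.

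**Figure D2:**
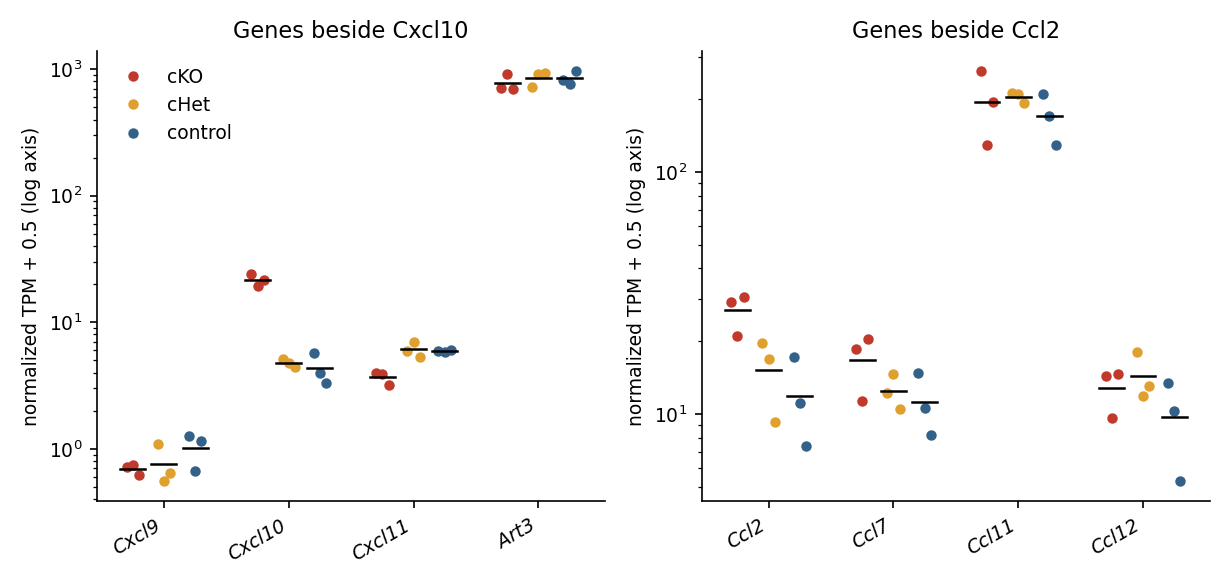
Normalized TPM plus 0.5 on a log axis for genes beside Cxcl10 (left) and beside Ccl2 (right), with 1 point per library and a line at the mean of 3 mice. Cxcl10 was 18.8 to 23.5 in the cKO and 2.80 to 5.16 in the control, while its neighbour Cxcl11 was 2.68 to 3.46 in the cKO and 5.29 to 5.58 in the control.

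Ccl2 (ENSMUSG00000035385), the main attractant of Ccr2+ monocytes, was 28.7, 20.5 and 29.9 normalized TPM in the cKO nerves, 19.2, 16.4 and 8.75 in the cHet nerves and 16.8, 10.7 and 6.87 in the control nerves. Every cKO nerve was above every other nerve, but the gap to the highest cHet nerve was small. The log2 difference was 1.24 against control (SE 0.36, 95% interval 0.41 to 2.06), with an unadjusted p of 0.00820 and a limma adjusted p of 0.171. Against cHet it was 0.87 (adjusted p = 0.315). The two-sided exact permutation test gave p = 0.1, the smallest that 3 mice against 3 can give.

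Ccl7 (ENSMUSG00000035373), which lies 8259 bp from Ccl2 on chromosome 11 and acts through Ccr1, Ccr2 and Ccr3, was 18.1, 10.9 and 20.0 in cKO, 11.8, 14.1 and 9.99 in cHet and 14.4, 10.1 and 7.74 in control nerves. These groups overlapped, with a log2 difference of 0.58 against control (-0.06 to 1.21, limma adjusted p = 0.441). Ccl11, the eotaxin gene 10298 bp further on, was 261, 129 and 194 in cKO, 212, 210 and 192 in cHet and 210, 170 and 129 in control nerves, above each of the 10 members in mean. Ccl12 was 13.8, 9.18 and 14.2 in cKO, 17.7, 11.4 and 12.6 in cHet and 13.0, 9.80 and 4.80 in control nerves. Neither passed the test in any comparison.

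Cxcl1 (ENSMUSG00000029380), a neutrophil attractant through Cxcr2, was 3.16, 2.56 and 1.81 normalized TPM in cKO, 1.74, 1.33 and 1.23 in cHet and 1.60, 0.92 and 1.41 in control nerves. The lowest cKO nerve was just above the highest cHet nerve. The log2 difference was 0.73 against control (0.11 to 1.35, limma adjusted p = 0.292) and 0.62 against cHet (adjusted p = 0.341). Without the 3 libraries whose labels disagree it was 0.37 against control (adjusted p = 0.984). These are the lowest values of the members, and at such levels the added 0.5 weighs most.

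Cxcl12 (ENSMUSG00000061353), which retains and guides cells through Cxcr4 and is scavenged by Ackr3, was 72.2, 53.5 and 58.4 normalized TPM in cKO, 68.1, 62.6 and 71.5 in cHet and 79.3, 48.8 and 57.2 in control nerves. Its log2 difference against control was 0.01 (-0.40 to 0.42, limma adjusted p = 0.991), so that the interval held changes of up to 1.34-fold. Cxcl16, the ligand of Cxcr6, was 3.04 to 4.45 in cKO, 2.56 to 4.08 in cHet and 3.24 to 4.61 in control nerves, with a log2 difference of -0.07 against control (-0.58 to 0.43). Of its 3021 exonic bases, joined over all its transcripts, 552 are shared with Zmynd15 on the other strand. Cx3cl1, the fractalkine gene, was 2.31 to 3.99 in cKO, 2.37 to 3.83 in cHet and 2.20 to 4.16 in control nerves, with 0.16 (-0.50 to 0.82).

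Il34 (ENSMUSG00000031750) had the highest mean of the members in each genotype. It was 138, 180 and 132 normalized TPM in the cKO nerves, 115, 118 and 125 in the cHet nerves and 89.9, 108 and 157 in the control nerves. The cKO nerves were all above the cHet nerves and overlapped the control nerves. The log2 difference was 0.37 against control (-0.08 to 0.82, limma adjusted p = 0.4997) and 0.32 against cHet (adjusted p = 0.519). Csf1 (ENSMUSG00000014599) was 16.4, 12.7 and 16.6 in cKO, 10.7, 12.4 and 11.4 in cHet and 17.1, 11.6 and 12.9 in control nerves. Its log2 difference was 0.14 against control (adjusted p = 0.803) and 0.39 against cHet (0.01 to 0.76, adjusted p = 0.328), with no overlap in the second. The ratio of Il34 to Csf1 was 10.2 ± 3.48 in cKO, 10.4 ± 0.753 in cHet and 8.92 ± 3.47 in control nerves (SD, n = 3 each).

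**Figure D3:**
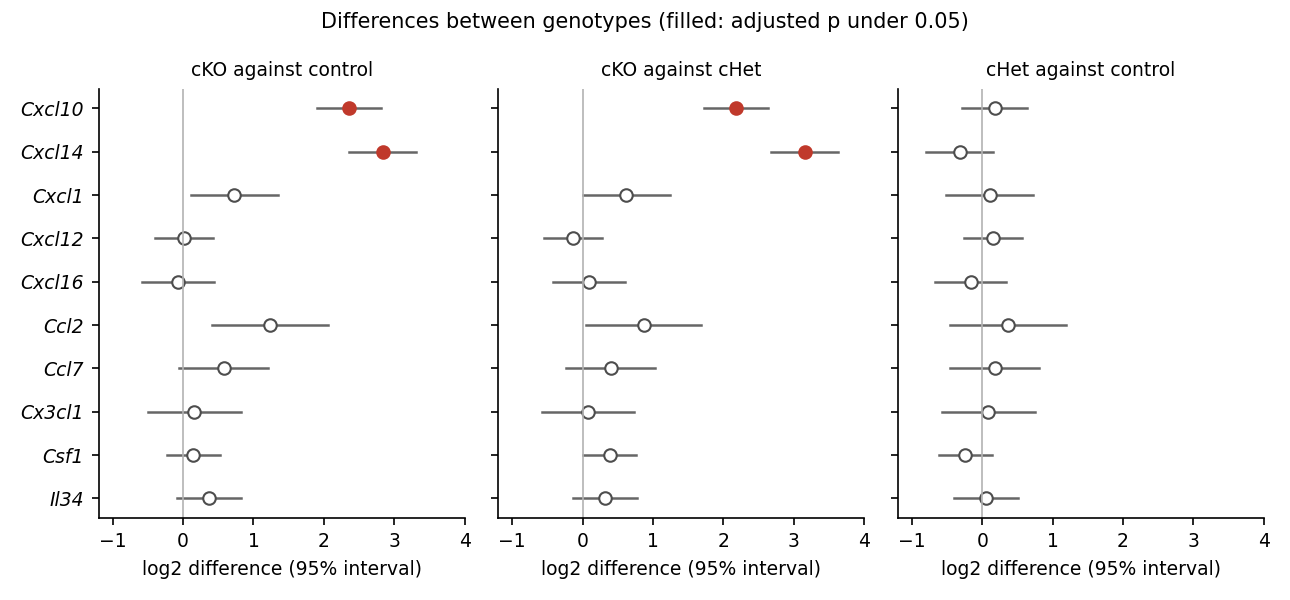
Log2 differences of the 10 genes on the log2(value + 0.5) scale, with 95% intervals from limma, for cKO against control, cKO against cHet and cHet against control. Filled points, Cxcl10 and Cxcl14 in the first and second panels (2.36 and 2.84, then 2.18 and 3.16), have an adjusted p under 0.05, and no point does in the third.

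Counted over the list, 4 of 10 members did not overlap in cKO against control, all higher, where 8.85% of all tested genes were higher without overlap. In cKO against cHet 2 of 10 passed limma's test, where 0.932% of genes were called higher, and 6 of 10 did not overlap, where 13.3% of genes were higher without overlap. The median log2 difference of the members was 0.47 against control and 0.39 against cHet, against -0.02 and 0.02 over all tested genes. The 2 comparisons share the cKO libraries. With each library rescaled to the same sum the median over all genes was -0.12 in cKO against cHet, and the calls there were 90 higher and 202 lower in place of 140 and 116.

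In cHet against control limma called 0 members and 0 of the 15014 genes (0%), and at an unadjusted p under 0.05 it gave 0 members and 408 genes (2.72%). Each of the 10 members overlapped between these groups, where 7.1% of all tested genes did not. Their log2 differences ran between -0.32 for Cxcl14 and 0.37 for Ccl2, with a median of 0.10. For Cxcl10 the difference was 0.18 (-0.28 to 0.63).

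The order of levels shifted with the pair that passed the test. Il34 and Cxcl12 came first and second by mean in every genotype, with no overlap between them or with the next gene. Cxcl14 was number 3 in cKO nerves, number 8 in cHet and number 6 in control nerves, and Cxcl10 was number 5, 6 and 8. In cKO nerves Cxcl14, Ccl2, Cxcl10, Ccl7 and Csf1 formed a run in which each gene overlapped its neighbour in the order. In control nerves Cxcl14, Cxcl16, Cxcl10 and Cx3cl1 formed such a run, all between 2.20 and 5.16.

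None of the 15 receptors listed for these ligands was called in any comparison, and 9 of them had a mean of at least 1. Cxcr3, the Cxcl10 receptor, was 0.22, 0.40 and 0.16 normalized TPM in cKO, 0.31, 0.21 and 0.08 in cHet and 0.27, 0.32 and 0.28 in control nerves, and was not tested. Cxcr2, Cxcr6, Ccr3 and Cxcr1 were below 1 in every nerve. Csf1r was 39.5, 21.4 and 27.6 in cKO, 33.0, 28.2 and 27.8 in cHet and 40.8, 22.1 and 27.7 in control nerves, a log2 difference of -0.03 against control (limma adjusted p = 0.980). Ccr2 was 9.19, 6.56 and 8.24 in cKO, 6.60, 5.32 and 5.39 in cHet and 9.03, 5.02 and 4.82 in control nerves. Cx3cr1, a receptor of resident macrophages, was 11.7 ± 3.29 in cKO, 10.7 ± 3.21 in cHet and 9.19 ± 2.27 in control nerves (SD, n = 3 each). The Cxcl12 receptors Cxcr4 and Ackr3 had log2 differences of -0.00299 and 0.27 against control. The scavenger Ackr1, a gene of venular endothelium and red cells, was 54.6, 70.4 and 56.4 in cKO against 43.2, 45.5 and 49.8 in cHet nerves, with no overlap and a log2 difference of 0.38 (adjusted p = 0.247).

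**Figure D4:**
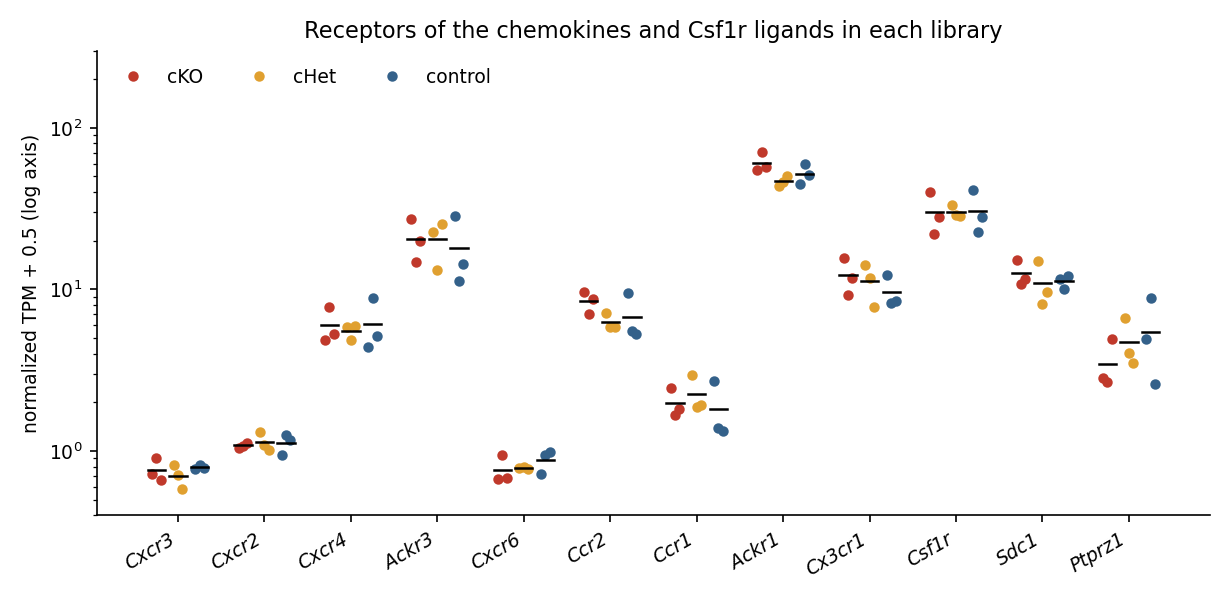
Normalized TPM plus 0.5 on a log axis for 12 receptors, with 1 point per library and a line at the mean of 3 mice, for cKO, cHet and control from left to right. Cxcr3, Cxcr2 and Cxcr6 lie below 1 normalized TPM in all nerves, and Csf1r spans 21.4 to 40.8 with the groups overlapping.

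The other genes of the pathway did not pass the test either. Of 15 other chemokines with a mean of at least 1, of 30 listed, 0 were called, with a median log2 difference of 0.01 in cKO against control. The counts were 0 of 5 for other chemokine receptors, 0 of 7 for other colony stimulating factors and their receptors, 0 of 9 for shedding and trimming enzymes, 0 of 18 for inducers of chemokines and their controls, and 0 of 12 for Csf1r signalling genes. At an unadjusted limma p under 0.05 these lists gave 5 genes higher and 3 lower in cKO against control, where 12.9% of all tested genes had such a p. Among the other chemokines below a mean of 1, which were not tested, Ccl22 was 1.83, 2.65 and 0.94 in cKO nerves. It was 0.29, 0.36 and 0.50 in cHet and 0.56, 0.11 and 0.59 in control nerves, below every cKO nerve. Ifng and Ifnb1 were listed at 0 in all 9 nerves, and Tnf, Il1b and Il6 were below 1. Adam17, which sheds cytokines and receptors from the cell surface, was 50.9, 42.8 and 49.4 in cKO, 34.3, 36.8 and 37.2 in cHet and 37.0, 31.4 and 28.4 in control nerves, with a log2 difference of 0.56 against control (adjusted p = 0.0594). Of the other colony stimulating factors and receptors, 1 of 7 log2 differences was above 0 in cKO against control. Kitl was 13.2 to 17.2 in cKO, 18.5 to 22.9 in cHet and 20.4 to 23.7 in control nerves. Csf2ra was 14.6 to 18.8, 22.4 to 24.2 and 19.5 to 24.7 in the same order.

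Markers of the cells that make or meet these signals are given beside the result. None of 18 macrophage markers was called, and their summed level was 471 to 644 in cKO, 440 to 549 in cHet and 392.2 to 645 in control nerves. Of the T cell and mast cell list, 6 of 10 genes had a mean of at least 1 and 0 were called. The sum was 14.8 to 23.4 in cKO against 10.96 to 65.1 in control nerves, and it hides opposite directions. Cpa3, Cma1, Mcpt4 and Tpsb2, of mast cells, had lower means in cKO than in control nerves. The T cell genes Cd3d, Cd3e, Cd3g, Cd4, Cd8a and Lck had higher means. Cd4 was 3.32 to 3.84 in cKO and 2.62 to 3.26 in control nerves. Cd8a, too low to be tested, was 0.61 to 0.76 and 0.38 to 0.51. Both overlapped the cHet nerves, and Cd3d and Cd8a had lower means in cKO than in cHet. Of the repair Schwann cell list 8 of 12 were tested and 0 called in cKO against control, with 5 of 8 log2 differences above 0, a median of 0.21 and a range from -0.64 (Gap43, adjusted p = 0.825) to 2.69 (Shh, adjusted p = 0.110). Against cHet 0 were called, with 5 of 8 above 0 and a median of 0.24. At an unadjusted limma p under 0.05, 2 were higher and 0 lower in each comparison. Gfap was 16.0 to 22.7 in cKO, 3.25 to 4.54 in cHet and 2.62 to 17.5 in control nerves. Shh was 7.97 to 16.3, 0.41 to 1.53 and 0.35 to 4.70. Fibroblast markers, 11 of 12 tested and 0 called, summed to 4716 to 8859 in cKO and 5860 to 9031 in control nerves. The part of these cells in the Cxcl10 and Cxcl14 result was not tested.

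The genes whose log2 values were most like those of a member across the 9 libraries were named for each member, as a description. For Cxcl14 they were Tnfrsf12a (Pearson's r = 0.994), Ephb1 (0.984) and Ppp6c (0.981), and for Cxcl10 Rai14 (0.986), Copb1 (0.984) and Ankub1 (0.984). For these members the likeness is mostly the step between cKO and the other groups, which the 9 points share. For Ccl2 they were Pgm3 (0.946), Trp53 (0.944) and Casp4 (0.942), for Ccl7 Dcst1 (0.961), Adcy8 (0.957) and Zfp46 (0.952), and for Cxcl1 Ergic3 (0.965), Brix1 (0.949) and Lman2 (0.944). For Il34 they were Prr5 (0.975), Kat8 (0.969) and Rcc1l (0.966), for Csf1 Ctu2 (0.942), Gstp2 (0.937) and Capn3 (0.928), and for Cxcl12 Creb5 (0.977), Plpp3 (0.945) and Pamr1 (0.934). Cxcl16 was most like Xpnpep2 (0.971), Cfb (0.967) and Cilp (0.951), and Cx3cl1 most like Med19 (0.919), Kbtbd8 (0.902) and Dnajc2 (0.902).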

How the data were processed

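RNA from the sciatic nerves of 9 mice was sequenced, with 3 mice per genotype, each a separate animal. The data the authors deposited are 36121 genes by 9 libraries of normalized TPM, which is a signal and not a count. Per the submitters' processing notes, kallisto 0.44.0 and sleuth 0.30.0 were used with GRCm38. For this table the annotation release, the use of strand and the scaling between libraries were not given in the sources used here. An Ensembl release is named only for the study's HISAT2 alignments, which were not analysed here. Library sums ran between 934932 and 1158094. TPM keep no reads per gene, so no interval or floor from counts was given. No column of values was left unused.

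Groups were taken from the sample titles. Ensembl identifiers gave a symbol for 35471 genes. The test used log2(value + 0.5) of the 15014 genes whose mean was 1 or more. It was limma 3.58.1 in R 4.3.3, as a single model of all libraries with eBayes and its trend option, p-values adjusted by Benjamini-Hochberg over these genes, and a threshold of 0.05. Single genes were also compared by two-sided exact permutation tests. The model was tested on simulated data before use. The other steps ran in Python 3.11.15.

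The members and lists were chosen with earlier results of these data known. The genes named are the 10 members, Tardbp, the cognate receptors, genes of the pathway lists past the threshold or with groups apart by at least 1 on the log2 scale, the 3 genes most like each member, and list genes near 0. Cxcl9, Cxcl11, Ccl11, Ccl12, Ccl22, Art3, Zmynd15, Adam17, Kitl, Csf2ra, Cnp, Egr2, S100b, Gap43, Gfap, Shh and the T cell and mast cell genes were named outside this rule, after their values were seen. Alternatives were the pseudocounts 0.1 and 1, a minimum mean of 5 or none, 3 other scalings between libraries, no trend, array weights, sex as a covariate, fits of the groups compared alone, each library left out, and the 3 libraries with disagreeing labels left out. Leaving out the libraries in which markers of neurons, of muscle or of adipocytes stood high was added after seeing the data. Promoter sequences came from RefSeq (GRCm38.p6), and coding sequences and positions from GENCODE on GRCm38.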

Additional observations from a re-analysis of the deposited data

How the results depend on the processing

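Cxcl10 and Cxcl14 stayed past limma's threshold without any 1 library, with log2 differences of 2.18 to 2.57 and 2.68 to 3.01 in cKO against control and 2.10 to 2.26 and 2.98 to 3.33 in cKO against cHet, and under 11 of the 12 other settings chosen with the design. The exception was the fit without the 3 libraries whose labels disagree, which leaves 1 cKO library: 0 members passed in cKO against control and 0 in cKO against cHet, where Cxcl10 gave 2.24 (adjusted p = 0.386) and Cxcl14 gave 3.61 (adjusted p = 0.128). Without libraries high in neuron markers, chosen after seeing the data, 1 member passed in cKO against control and 1 in cKO against cHet. Over all tested genes that fit called 16 and 14 in these comparisons, against 235 and 256 in the main fit. Without those high in adipocyte markers only control replicate 2 remained of its group, and Cxcl14 gave 2.82 in cKO against control and did not pass. These fits hold fewer libraries.

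No other member passed under any alternative, and small differences changed sign. In cKO against control Cxcl12 was -0.0574 with rescaled sums, -0.0508 without the 3 libraries and -0.11 without those high in neuron markers, Cxcl16 was 0.00346 with quantile normalization, 0.0894 without muscle-high and 0.13 without adipocyte-high libraries, Csf1 was -0.0339 without neuron-high libraries, and Cx3cl1 was -0.00942 without muscle-high and -0.29 without adipocyte-high libraries. In cKO against cHet Cxcl16 was -0.0347 and Cx3cl1 -0.0503 with rescaled sums, and Cx3cl1 was -0.000661 without neuron-high and -0.0407 without muscle-high libraries. In cHet against control Cx3cl1 was -0.00634 with array weights and -0.36 without adipocyte-high libraries, Cxcl1 -0.00672 without the 3 libraries and -0.17 without neuron-high libraries, Cxcl12 -0.0110 without neuron-high, Il34 -0.13 without muscle-high and Cxcl16 0.0363 without adipocyte-high libraries. With 1 library left out the signs changed for Cxcl12 (-0.14 to 0.20), Cxcl16 (-0.21 to 0.0512) and Cx3cl1 (-0.00743 to 0.39) in cKO against control, for Cxcl16 (-0.0722 to 0.22) and Cx3cl1 (-0.0933 to 0.30) in cKO against cHet, and for Cxcl1 (-0.0601 to 0.22), Cxcl12 (-0.00219 to 0.35), Ccl7 (-0.0264 to 0.40), Cx3cl1 (-0.0827 to 0.31) and Il34 (-0.13 to 0.27) in cHet against control. The cause was not tested. No paired analysis was possible because the labels share no replicate number between groups and do not say which mice came from a litter. The study's methods describe sets matched by litter or birth date, and the part of litter in the results was not tested. With 3 mice per group an exact permutation test cannot give a p below 0.1, and the values keep no read count per gene, so precision rests on the spread between mice.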

Other observations

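In each genotype the library numbered 1 by accession order held the highest Csf1r value of its group, 39.5 normalized TPM in cKO, 33.0 in cHet and 40.8 in control, and the highest Cxcl16 value, 4.45, 4.08 and 4.61 in the same order. The same held for Cxcl10 (23.5, 4.62 and 5.16) and Cxcl1 (3.16, 1.74 and 1.60), and not for the other members. By the mean log2 level of a list, it also held for macrophage, fibroblast and perineurial markers and for the cognate receptors, among other lists. It did not hold for Schwann cell or neuron markers. How many of all genes show this order was not counted. The other 6 libraries lay between 21.4 and 28.2 for Csf1r. Accession numbers pair no mice, and whether these 3 mice shared a litter or a dissection day was not tested.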
